A study of Homo sapiens with 12 samples.

Results

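Expression of 11993 genes was compared between MOLM13 cells carrying hairpin 2 against IGF2BP3 (shBP3-2) and MOLM13 cells carrying hairpin 1 against the same gene (shBP3-1). The genes were those with a base mean, the average of normalised reads over the 4 libraries of a comparison, of at least 50 in both deposited comparisons with the shared control shNS. They make up 11993 of the 24939 genes listed in both comparisons. The hairpins were delivered by lentivirus, and each of the 3 groups (shBP3-2, shBP3-1 and shNS) held 2 libraries of cells grown in the same medium. MOLM13 is a human acute myeloid leukemia line with monocytic features and a KMT2A fusion, and all groups are this 1 line. Nothing states that the libraries of a group came from separate cultures, so p-values measure only the spread between these libraries, which may be technical.

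IGF2BP3 is an RNA-binding protein of the IGF2BP family, whose members bind many mRNAs, among them mRNAs with N6-methyladenosine (m6A), and affect their stability, translation and location. A short hairpin RNA is processed into a small RNA that directs the cell's silencing machinery to a matching transcript. Each hairpin sequence can also act on other transcripts and can be sensed by the cell, which is why knockdown studies use more than one hairpin. The sequences of the hairpins were not used here.

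The deposited tables give 1 base mean and 1 fold change per gene and comparison. Whole reads per library were recovered from the base means, which are printed with 15 significant digits, for 11983 of the genes. Where each table taken alone allowed exactly 1 set of reads, for 11717 genes, both tables gave the same reads in the control libraries in 11717 of them. The recovered reads sum to 19280803 and 19083984 in the hairpin 2 libraries, 21636040 and 20376035 in the hairpin 1 libraries and 20843186 and 20906272 in the shNS libraries, without the 10 genes not recovered. Of these 10, 9 had a base mean above the 100000 searched, and 1 gave no set of reads that fits both comparisons. Library numbers cannot be tied to these reads, so the libraries of a group are given in an arbitrary order. Normalised reads are reads divided by a size factor per library. The median gene differed between the libraries of a group by 5.73% with hairpin 2, 9.79% with hairpin 1 and 7.43% with shNS. Libraries of a group stood over 2-fold apart in 12 genes with hairpin 2, 9 with hairpin 1 and 29 with shNS. In shNS 13 of the 29 were small RNA genes, all higher in the same library. The 67 small RNA genes summed to 27555.5 and 25847.6 normalised reads with hairpin 2, 16502.7 and 16556.5 with hairpin 1 and 25934.7 and 16865.1 with shNS.

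Of 40 monocyte and macrophage markers, 39 were listed in both tables and 30 reached the minimum. The normalised reads of those listed, without LYZ, whose reads were not recovered, summed to 97401 and 95742 with hairpin 2, 69149.7 and 63374 with hairpin 1 and 38888 and 43209 with shNS. Of 18 erythroid and megakaryocyte markers 5 were listed and 1 reached the minimum, EPOR. Of 18 lymphoid markers 12 were listed and 4 reached it, namely CD4, which monocytes also express, PAX5, NKG7 and IL7R. The listed lymphoid markers summed to 8492 and 8218 with hairpin 2, 8870.4 and 7959 with hairpin 1 and 5714 and 5901 with shNS. The listed erythroid and megakaryocyte markers summed to 258 and 195 with hairpin 2, 212 and 181 with hairpin 1 and 202 and 188 with shNS. The part of these levels in the differences that follow was not tested. In bulk RNA, fewer cells of a type and less RNA per cell cannot be told apart.

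The difference is the log2 fold change of hairpin 2 minus that of hairpin 1, both against shNS, so a positive value means a higher level with hairpin 2. It was tested with a Wald test on standard errors worked out from the authors' deposited statistics and adjusted by the Benjamini-Hochberg procedure over all 16255 genes with a test. A gene is called higher or lower at an adjusted p under 0.05. Of all genes with a test, 9.1% were called higher and 18.3% lower. Among the genes compared, 11981 had a test, of which 1406 (11.7%) were called higher and 2882 (24.1%) lower with hairpin 2. At least 2-fold differences made up 401 of the higher and 687 of the lower calls. The median difference over the genes was -0.10 and the middle 50% lay between -0.45 and 0.25. With all differences centred on that median, 1791 genes were called higher and 2281 lower.

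The shared control adds to both standard errors although it cancels in the difference, so these standard errors are too large. A limma fit to the recovered reads, added after the tables had been seen, compared the hairpin libraries with a spread pooled over the 3 groups. It called 2856 genes higher (23.8%) and 4271 lower (35.6%), and it made the same call for 4282 of the 4288 genes called by the Wald test. The other 6 had no recovered reads. In 1401 of 1401 genes called higher with recovered reads, both hairpin 2 libraries stood above both hairpin 1 libraries, and in 2881 of 2881 called lower both stood below. The Wald calls, the limma fit and this order all come from the same libraries. They are therefore not independent of each other, and such an order is expected of genes called this way.

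**Figure D1:**
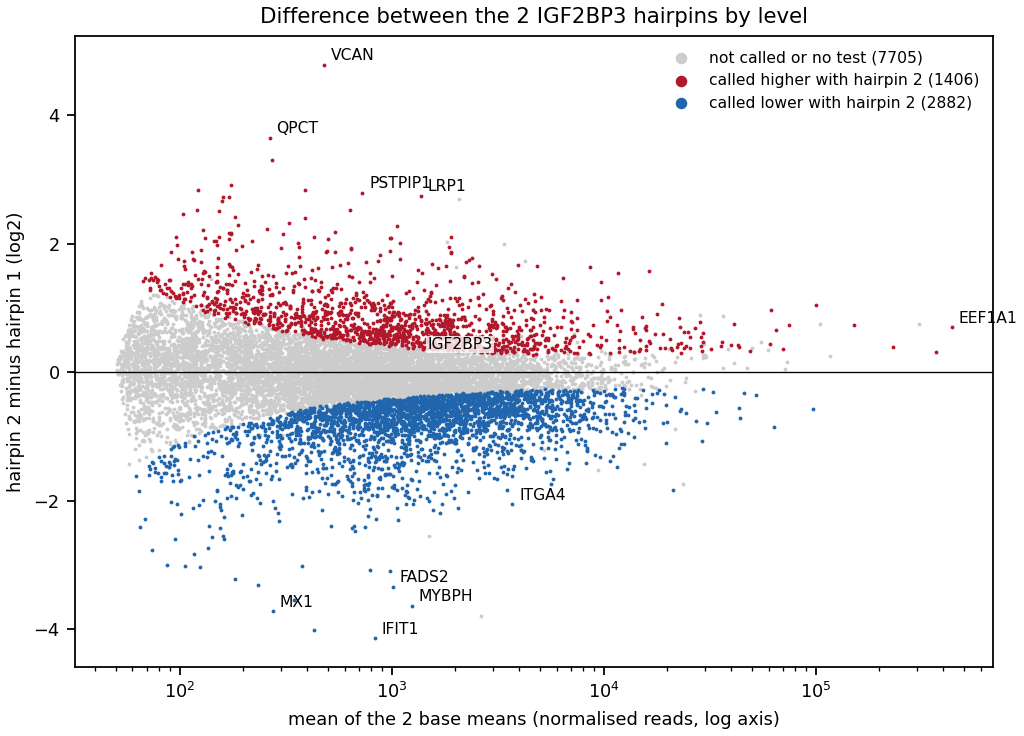
Each point is 1 of the 11993 genes, with the mean of its base means on a log axis across and the log2 difference of hairpin 2 minus hairpin 1 upwards. Red points (1406) were called higher and blue points (2882) lower with hairpin 2, and grey points were not called or had no test. VCAN stands highest at 4.79 and IFIT1 lowest at -4.14.

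The target itself was lower than shNS with both hairpins in the authors' deposited tables, and its levels with hairpin 1 lay below those with hairpin 2. IGF2BP3 (ENSG00000136231.14, chromosome 7, 23310209 to 23470467, minus strand, hg38) had 926 and 938 normalised reads with hairpin 2, 705 and 797 with hairpin 1 and 1892 and 1904 with shNS. The libraries of the hairpins did not overlap with each other or with shNS. The difference was 0.29 ± 0.15 (SE), which the Wald test did not call (adjusted p = 0.15) and limma did (adjusted p = 0.0064). In the authors' deposited tables IGF2BP3 changed by -1.03 with hairpin 2 and -1.32 with hairpin 1 on the log2 scale.

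Its paralogs also had higher levels with hairpin 2 than with hairpin 1, called by limma and not by the Wald test. IGF2BP1 had 1625 and 1569.9 normalised reads with hairpin 2, 1256 and 1241 with hairpin 1 and 1933 and 1934 with shNS, a difference of 0.33 ± 0.14 (Wald adjusted p = 0.053, limma adjusted p = 9.5e-04). IGF2BP2 had 3564 and 3720.2 normalised reads with hairpin 2, 2979 and 2964 with hairpin 1 and 3726 and 3367 with shNS, a difference of 0.27 ± 0.13 (Wald adjusted p = 0.096, limma adjusted p = 0.0034). For both paralogs the hairpin 2 libraries stood above the hairpin 1 libraries, and for IGF2BP2 they overlapped with shNS.

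Among genes with a symbol and a Wald test, the highest difference belonged to VCAN (ENSG00000038427.16, chromosome 5, 83471465 to 83582303, plus strand, hg38), which encodes versican, a large matrix proteoglycan made by monocytes. It had 1469 and 1544 normalised reads with hairpin 2, 48.6 and 58.8 with hairpin 1 and 181 and 207 with shNS. Against the control it moved in opposite directions, with log2 fold changes of 2.95 with hairpin 2 and -1.84 with hairpin 1 in the authors' deposited tables. The difference was 4.79 ± 0.32 (Wald adjusted p = 5.4e-47), a 27.7-fold higher level with hairpin 2.

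Next came QPCT, the glutaminyl cyclase that forms pyroglutamate at protein ends, with 862 and 796 normalised reads with hairpin 2, 65.5 and 64.6 with hairpin 1 and 74.2 and 105 with shNS (log2 difference 3.65 ± 0.40, Wald adjusted p = 3.6e-18). SLC16A6, a monocarboxylate transporter family member, had 918 and 899 normalised reads with hairpin 2, 81.4 and 98.9 with hairpin 1 and 49.5 and 61.2 with shNS (log2 difference 3.31 ± 0.41, Wald adjusted p = 2.3e-14). In both genes the hairpin 2 libraries lay far above all others, and hairpin 1 lay below shNS for QPCT and above it for SLC16A6. Neither change with hairpin 1 was called in the authors' deposited tables (DESeq2 adjusted p = 0.36 for QPCT and 0.11 for SLC16A6). ANPEP, the myeloid surface aminopeptidase CD13, had 586 and 551 normalised reads with hairpin 2, 81.4 and 67.6 with hairpin 1 and 39.6 and 27.1 with shNS (log2 difference 2.91 ± 0.49, Wald adjusted p = 5.5e-08). LRP1, an endocytic receptor of macrophages, had 3946 and 3788 normalised reads with hairpin 2, 638 and 497 with hairpin 1 and 529.6 and 556 with shNS (log2 difference 2.75 ± 0.19, Wald adjusted p = 3.9e-46). For LRP1 the hairpin 1 and shNS libraries overlapped.

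MCEMP1, a membrane protein of mast cells and myeloid cells, had 1037 and 1004 normalised reads with hairpin 2, 149 and 131 with hairpin 1 and 227 and 189 with shNS and differed by 2.84. HTRA1, a secreted serine protease, had 466 and 415 normalised reads with hairpin 2, 63.6 and 67.6 with hairpin 1 and 69.3 and 113 with shNS and differed by 2.73. PSTPIP1, an adaptor that links the actin cytoskeleton to the inflammasome protein pyrin, is described with the genes that moved in opposite directions. The remaining genes among the 12 highest with a symbol and a Wald test were the long noncoding RNA LINC02019 (2.83), the guanine nucleotide exchange factor ARHGEF10L (2.72), the kinase MAP3K12 (2.52) and the giant muscle protein gene NEB (2.51), all called higher by the Wald test. MMP2, which has no Wald test, would also rank among them and is described with the matrix genes.

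Among the 12 lowest differences of genes with a Wald test, 7 belonged to interferon-stimulated genes (IFIT1, IFI44, MX1, EPSTI1, USP18, SIGLEC1 and ISG15). The other 5 were MYBPH, FADS2, PBK, CSRP3 and LGALS12. OAS2, an interferon-stimulated gene without a Wald test, would rank between IFI44 and MX1. MYBPH encodes a myosin-binding protein, and CSRP3 a LIM protein of muscle. CSRP3 had 16.3 and 20.4 normalised reads with hairpin 2, 151 and 144 with hairpin 1 and 156 and 176 with shNS, so hairpin 1 lay just under the control and hairpin 2 far below it (log2 difference -3.04 ± 0.45, Wald adjusted p = 2.8e-10). In the authors' deposited tables the change of CSRP3 with hairpin 1 was not called (DESeq2 adjusted p = 0.70). LGALS12, a galectin of fat and myeloid cells, had 11.2 and 13.2 normalised reads with hairpin 2, 105 and 90.1 with hairpin 1 and 165 and 146 with shNS (log2 difference -3.02 ± 0.50, Wald adjusted p = 3.2e-08).

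**Figure D2:**
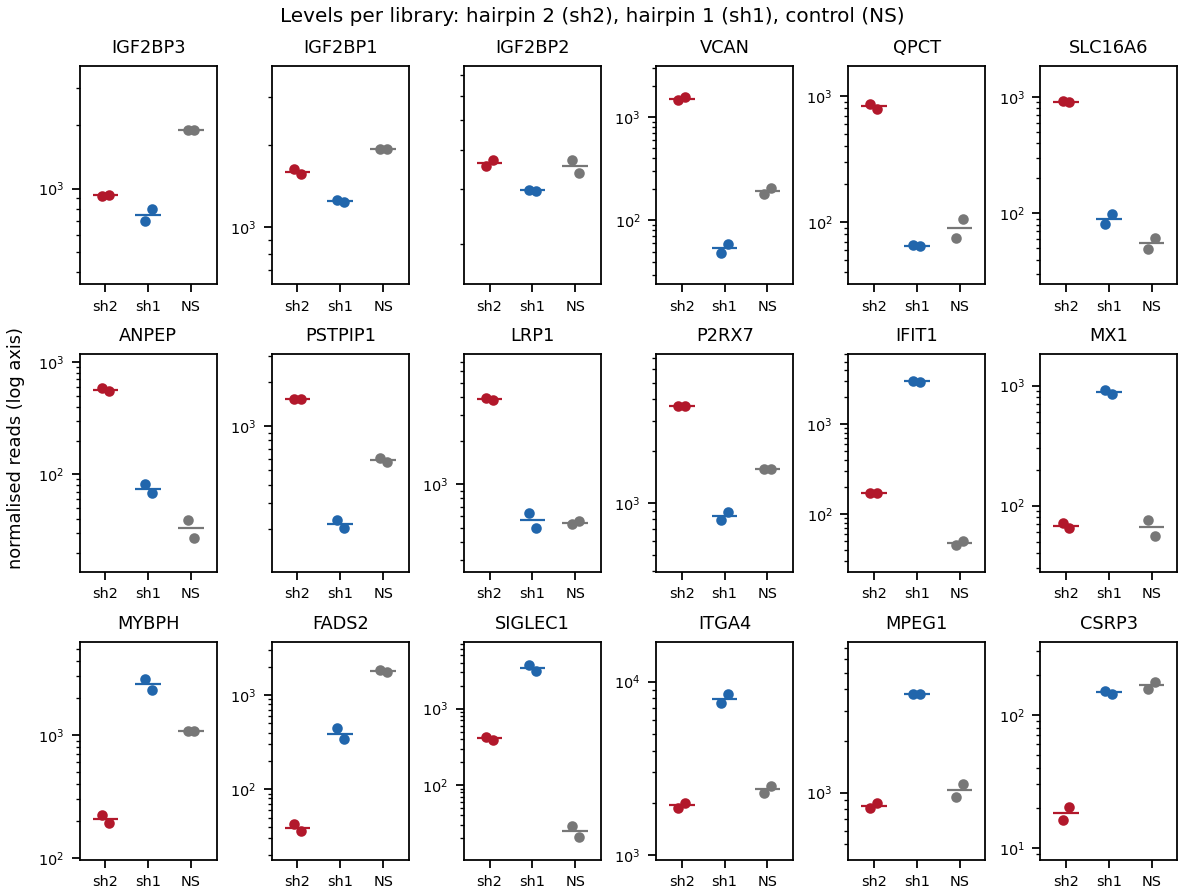
Normalised reads of 18 genes on log axes, 1 point per library and a bar at the mean of each group's 2 libraries, for hairpin 2 (red), hairpin 1 (blue) and shNS (grey). IGF2BP3 is below shNS in all 4 hairpin libraries, VCAN has 1469 and 1544 normalised reads with hairpin 2 against 48.6 and 58.8 with hairpin 1, and IFIT1 has 173 and 173 with hairpin 2 against 3017 and 2991 with hairpin 1.

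Interferon-stimulated genes are switched on by type I interferon, and many carry the interferon-stimulated response element in their promoters. They encode antiviral effectors, and double-stranded RNA is a known inducer. Of the 39 list members with a test, 34 were called lower with hairpin 2, none higher and 5 were not called. The median difference over all 41 list members compared, with or without a test, was -1.31, against -0.10 over all genes compared. The medians of their own changes were 0.82 with hairpin 2 and 2.55 with hairpin 1 in the authors' deposited tables.

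Against the control the list members fall into different patterns. IFIT1 (ENSG00000185745.10, chromosome 10, 89392546 to 89406486, plus strand, hg38), which binds viral RNA lacking cap methylation, had 173 and 173 normalised reads with hairpin 2, 3017 and 2991 with hairpin 1 and 45.5 and 50.2 with shNS (log2 difference -4.14 ± 0.35, Wald adjusted p = 2.3e-30). It was higher than shNS with both hairpins. MX1, a GTPase against RNA viruses, had 71.1 and 65.2 normalised reads with hairpin 2, 914 and 854 with hairpin 1 and 76.2 and 56.2 with shNS (log2 difference -3.72 ± 0.42, Wald adjusted p = 3.0e-17), and its hairpin 2 libraries lay within the range of the shNS libraries. USP18, the protease that removes ISG15 from proteins, had 72.2 and 63.1 normalised reads with hairpin 2, 697 and 625 with hairpin 1 and 109.9 and 88.3 with shNS (log2 difference -3.31 ± 0.38, Wald adjusted p = 2.8e-16). Its hairpin 2 libraries lay below both shNS libraries, a change not called in the authors' deposited tables (DESeq2 adjusted p = 0.18).

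SIGLEC1, a sialic acid receptor of macrophages, rose with both hairpins but unequally, with 423 and 394 normalised reads with hairpin 2, 3713 and 3129 with hairpin 1 and 28.7 and 21.1 with shNS (log2 difference -3.09 ± 0.37, Wald adjusted p = 1.7e-15). IFI44 had 86.4 and 104 normalised reads with hairpin 2, 1440.0 and 1593 with hairpin 1 and 36.6 and 46.1 with shNS. ISG15, the ubiquitin-like modifier, had 331 and 269.8 normalised reads with hairpin 2, 2831 and 2159 with hairpin 1 and 145 and 156 with shNS. EPSTI1 had 115 and 95.7 normalised reads with hairpin 2, 1212 and 1216 with hairpin 1 and 21.8 and 24.1 with shNS. In these 3 genes hairpin 2 lay above both shNS libraries and hairpin 1 several-fold above hairpin 2. OAS2 and OAS3 make the second messenger that activates RNase L. The authors' deposited tables list an adjusted p of 0 for each with hairpin 1, which leaves no standard error and no Wald test. OAS2 had 676 and 690.3 normalised reads with hairpin 2, 9371 and 9263 with hairpin 1 and 154 and 163 with shNS (limma difference -3.77, adjusted p = 7.5e-15). OAS3 had 863 and 829.8 normalised reads with hairpin 2, 5043 and 4737 with hairpin 1 and 85.1 and 102 with shNS (limma difference -2.53, adjusted p = 6.3e-12).

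Promoter windows of 300 bases around the RefSeq start (GRCh38.p14, 250 bases before to 50 after) were matched to 8957 of the genes by symbol. The core of the interferon response element was searched as GAAANNGAA on both strands. It was found in 67.7% of the 31 interferon list promoters, 10.6% of the 527 promoters of genes called at least 2-fold lower, 8.65% of the 266 called at least 2-fold higher, 7% of all matched genes and 8.29% of all 27305 promoters. A match describes the letters and not a bound site. The promoters of the 2 list members with the lowest differences that hold the core are shown because these genes moved furthest, with matches in capitals and the sequence 5′ to 3′ in the direction of the gene.
IFIT1 (chr10:89392373-89392672, plus strand): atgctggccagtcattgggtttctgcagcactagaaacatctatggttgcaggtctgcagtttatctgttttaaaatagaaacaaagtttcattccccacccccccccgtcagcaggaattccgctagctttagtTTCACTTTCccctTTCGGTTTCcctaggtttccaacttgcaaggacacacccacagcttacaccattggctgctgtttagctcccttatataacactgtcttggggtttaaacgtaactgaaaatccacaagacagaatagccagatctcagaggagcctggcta
IFI44 (chr1:78649539-78649838, plus strand): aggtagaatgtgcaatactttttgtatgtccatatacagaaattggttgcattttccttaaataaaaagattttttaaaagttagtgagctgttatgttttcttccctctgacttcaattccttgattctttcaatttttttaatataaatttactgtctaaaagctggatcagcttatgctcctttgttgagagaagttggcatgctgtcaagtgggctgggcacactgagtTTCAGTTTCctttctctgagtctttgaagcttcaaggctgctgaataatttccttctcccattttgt
IFIT1 holds 2 matches, which begin 115 and 102 bases before the start, and IFI44 holds 1, which begins 17 bases before it. Both genes carry the core on the reverse strand.

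Antigen presentation genes, many of which respond to interferon, were lower with hairpin 2 in part of the cases. CIITA, the transactivator of MHC class II genes, had 545 and 486 normalised reads with hairpin 2, 1751 and 1682 with hairpin 1 and 447 and 399 with shNS (log2 difference -1.76 ± 0.20, Wald adjusted p = 1.9e-17). Over all genes compared, 24.1% were called lower and 11.7% higher. Of 15 MHC class I genes 7 were called lower and 2 higher (median -0.33), the latter a share near that of all genes. Once centred on the median difference, 5 were called lower and 2 higher. The lower ones include the peptide transporter TAP1 (-1.11) and the loading chaperone TAPBP (-1.09). In the authors' deposited tables TAP1 rose with both hairpins, by 0.70 with hairpin 2 and 1.81 with hairpin 1. TAPBP fell there by -0.87 with hairpin 2, and its 0.22 with hairpin 1 was not called (DESeq2 adjusted p = 0.30). The immunoproteasome subunit PSMB9 was called lower (-0.81, Wald adjusted p = 0.023) but not when differences were centred on their median. Of 5 class II genes 2 were called lower, CIITA and the invariant chain CD74 (-0.61). HLA-DRA had 69.1 and 194 normalised reads with hairpin 2, 58 and 85.2 with hairpin 1 and 149 and 26.1 with shNS, so the libraries of all 3 groups overlapped.

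Every mitosis and DNA replication gene on the lists that had a test was called lower with hairpin 2. Mitosis genes encode the kinases, kinesins and condensins that segregate chromosomes, and their promoters often hold a cell cycle homology region and CCAAT boxes. Of 37 mitosis genes with a test, 37 were called lower (median difference -1.77 over all 38 compared). The medians of their own changes were -2.67 with hairpin 2 and -0.99 with hairpin 1 in the authors' deposited tables. The 40 DNA replication genes were called lower (median difference -1.29), with own medians of -2.31 with hairpin 2 and -1.03 with hairpin 1 in the authors' deposited tables.

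CDK1, the kinase that starts mitosis, had 318 and 327 normalised reads with hairpin 2, 1274 and 1357 with hairpin 1 and 2453 and 2819 with shNS (log2 difference -2.05 ± 0.16, Wald adjusted p = 6.1e-36). PBK, a mitotic kinase, had 23.4 and 13.2 normalised reads with hairpin 2, 200.1 and 137 with hairpin 1 and 257 and 282 with shNS (log2 difference -3.23 ± 0.41, Wald adjusted p = 1.7e-13). CENPA, the centromere histone, had 79.3 and 50.9 normalised reads with hairpin 2, 284 and 299.7 with hairpin 1 and 385 and 414 with shNS (log2 difference -2.19 ± 0.29, Wald adjusted p = 3.3e-12). In CDK1 the groups form 3 steps without overlap, lowest with hairpin 2 and highest with shNS. The condensin subunit NCAPG had 299.8 and 266 normalised reads with hairpin 2, 1053 and 1172 with hairpin 1 and 2313 and 2243 with shNS (Wald adjusted p = 1.1e-34). MKI67, the proliferation antigen Ki-67, had no Wald test and stood at 3499.9 and 3453 normalised reads with hairpin 2, 8964 and 9443 with hairpin 1 and 26214 and 22822 with shNS (limma difference -1.40, adjusted p = 1.2e-10).

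Among replication genes, MCM10, a replication initiation factor, had 203 and 214 normalised reads with hairpin 2, 843 and 857 with hairpin 1 and 1941 and 2014 with shNS (log2 difference -2.05 ± 0.16, Wald adjusted p = 1.2e-33). FEN1, the flap endonuclease that trims Okazaki fragments, had 275 and 229 normalised reads with hairpin 2, 1028 and 944 with hairpin 1 and 1913 and 1909 with shNS (log2 difference -1.99 ± 0.16, Wald adjusted p = 2.8e-31). Both follow the same 3 steps. The origin recognition subunit ORC6 (-1.90) and the helicase partner GINS1 (-1.86) were also called lower. Replication-dependent histone genes, which supply new chromatin in S phase, were called lower in 18 of 27 cases (median -0.82 over all 29 compared). H2BC17 had 1289.6 and 1180.0 normalised reads with hairpin 2, 3829 and 3249 with hairpin 1 and 8379 and 9167 with shNS (log2 difference -1.54 ± 0.13, Wald adjusted p = 2.9e-30). Their mRNAs end in a stem loop and largely lack a poly(A) tail, and the labels name total RNA for these libraries while the protocol describes capture of mRNA.

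The cell cycle homology region, searched as TTTGAA on both strands, was found in 67.7% of 31 mitosis list promoters, 22% of those of genes called at least 2-fold lower, 10.9% of those called at least 2-fold higher, 9.81% of all matched genes and 15.4% of all promoters. The CCAAT box was found in 71% of mitosis promoters, 55.9% of 34 replication promoters and 37.5% of all matched genes (35.7% of all promoters). The core of an E2F site, TTTGGCGC on either strand, was found in 23.5% of replication promoters, 0 of the 31 mitosis promoters and 1.17% of all matched genes (0.659% of all promoters). Matches to different motifs can share bases. The promoters of CENPA and CDK1 (letters TTTGAA in capitals) and of GINS1 (letters of the E2F core in capitals, reverse strand) are shown. They are list members with low differences that hold the letters searched. A match, also that in CDK1, describes the letters and need not be a working element.
CENPA (chr2:26785806-26786105, plus strand): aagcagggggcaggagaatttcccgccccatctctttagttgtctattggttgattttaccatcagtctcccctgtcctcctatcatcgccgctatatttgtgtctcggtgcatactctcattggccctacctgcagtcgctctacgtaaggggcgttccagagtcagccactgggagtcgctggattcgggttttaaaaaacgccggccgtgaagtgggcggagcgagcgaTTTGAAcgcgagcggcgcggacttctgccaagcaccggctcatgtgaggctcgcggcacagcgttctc
CDK1 (chr10:60778081-60778380, plus strand): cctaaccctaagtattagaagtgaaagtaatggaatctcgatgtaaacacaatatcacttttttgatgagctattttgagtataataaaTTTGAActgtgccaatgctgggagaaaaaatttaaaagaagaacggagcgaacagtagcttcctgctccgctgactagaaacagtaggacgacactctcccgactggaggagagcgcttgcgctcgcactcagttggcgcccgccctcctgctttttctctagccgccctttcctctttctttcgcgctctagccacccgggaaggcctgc
GINS1 (chr20:25407423-25407722, plus strand): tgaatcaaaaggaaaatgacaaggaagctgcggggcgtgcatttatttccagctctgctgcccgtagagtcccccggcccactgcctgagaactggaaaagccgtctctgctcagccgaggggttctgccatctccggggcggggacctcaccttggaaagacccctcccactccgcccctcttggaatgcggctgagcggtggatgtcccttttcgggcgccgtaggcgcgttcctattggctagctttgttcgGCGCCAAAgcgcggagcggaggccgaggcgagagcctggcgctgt
The match begins 18 bases before the start in CENPA, 161 before it in CDK1 and 5 bases after it in GINS1.

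**Figure D3:**
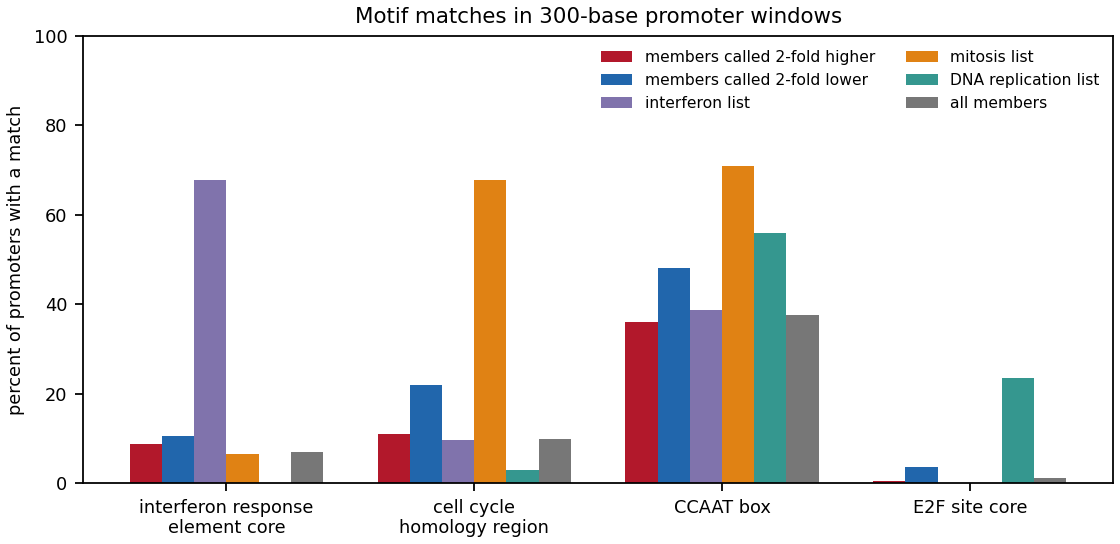
Bars give the percent of 300-base promoter windows with at least 1 match to a motif on either strand, for genes called at least 2-fold higher (266) or lower (527) with hairpin 2, for the interferon (31), mitosis (31) and DNA replication (34) lists and for all 8957 matched genes. The interferon response element core is in 67.7% of interferon list promoters and the cell cycle homology region in 67.7% of mitosis list promoters.

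A set of genes was called higher with one hairpin and lower with the other against shNS in the authors' deposited tables. Higher with hairpin 2 and lower with hairpin 1 were, besides VCAN, PSTPIP1 which had 1537 and 1528 normalised reads with hairpin 2, 230.0 and 205 with hairpin 1 and 611 and 569.7 with shNS (log2 difference 2.79 ± 0.20, Wald adjusted p = 2.6e-40). P2RX7, the ATP-gated channel that activates the inflammasome in macrophages, had 3662 and 3666 normalised reads with hairpin 2, 792 and 888 with hairpin 1 and 1582 and 1579 with shNS (log2 difference 2.10 ± 0.14, Wald adjusted p = 9.3e-47). In both, shNS lay between the hairpins with no overlap. The log2 fold changes of P2RX7 in the authors' deposited tables were 1.21 with hairpin 2 and -0.90 with hairpin 1. PCNX2 (2.27), MFSD6 (2.10) and the ubiquitin ligase NEDD4L (1.98) had the same arrangement.

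Lower with hairpin 2 and higher with hairpin 1 was MYBPH (ENSG00000133055.10, chromosome 1, 203167811 to 203175813, minus strand, hg38), with 226 and 194 normalised reads with hairpin 2, 2826 and 2311 with hairpin 1 and 1081 and 1066 with shNS (log2 difference -3.64 ± 0.18, Wald adjusted p = 3.4e-82). Its log2 fold changes in the authors' deposited tables were -2.36 with hairpin 2 and 1.27 with hairpin 1. ITGA4, the alpha 4 integrin that binds VCAM1 and fibronectin, had 1881 and 2007 normalised reads with hairpin 2, 7507 and 8443 with hairpin 1 and 2279.8 and 2509 with shNS (log2 difference -2.06 ± 0.13, Wald adjusted p = 1.7e-51). MPEG1, perforin-2 of macrophages, had 809.9 and 868 normalised reads with hairpin 2, 3782 and 3761 with hairpin 1 and 944 and 1116 with shNS (log2 difference -2.19 ± 0.16, Wald adjusted p = 6.2e-39). For ITGA4 and MPEG1 hairpin 2 lay just under the control and hairpin 1 far above it. The IgM receptor FCMR (-3.00), the receptor kinase ROS1 (-2.26) and the calcium channel subunit CACNB4 (-1.92) shared the arrangement.

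Genes of protein synthesis did not move as one group. Cytosolic ribosomal protein genes, which form the ribosome's 2 subunits, were called higher in 36 of 60 cases and lower in 2 (median 0.35, limma 48 and 2). Their own medians were -0.25 with hairpin 2 and -0.63 with hairpin 1 in the authors' deposited tables. RPS28 had 12215 and 11401 normalised reads with hairpin 2, 6888 and 5165 with hairpin 1 and 11717 and 11779 with shNS (log2 difference 0.95 ± 0.13, Wald adjusted p = 5.0e-11), so hairpin 2 lay at the level of shNS and hairpin 1 below it. RPL34 was one of the exceptions, with 4079 and 3958 normalised reads with hairpin 2, 8653 and 8016 with hairpin 1 and 9334 and 10947 with shNS (log2 difference -1.08 ± 0.13, Wald adjusted p = 1.1e-15), and RPL23 was the other. Ribosomal protein genes have many processed pseudogenes, which can take or give reads.

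Ribosome biogenesis factors, which process and assemble ribosomal RNA in the nucleolus, went the other way, with 32 of 34 called lower and none higher (median -0.82). DDX21, a nucleolar helicase, had 9200.1 and 9629 normalised reads with hairpin 2, 19429 and 20298 with hairpin 1 and 24117 and 25151 with shNS (log2 difference -1.10 ± 0.10, Wald adjusted p = 6.7e-26). UTP20 (-1.22), BOP1 (-1.19) and NIP7 (-1.04) were called lower as well. Mitochondrial ribosomal protein genes, encoded in the nucleus, were called lower in 27 of 39 cases and higher in none (median -0.56). MRPL1 had 271 and 309.5 normalised reads with hairpin 2, 785 and 923 with hairpin 1 and 753 and 748 with shNS (log2 difference -1.58 ± 0.20, Wald adjusted p = 7.1e-14), with hairpin 1 above the control and hairpin 2 below it. In the authors' deposited tables the change of MRPL1 with hairpin 1 was not called (DESeq2 adjusted p = 0.28).

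Most genes of the proteasome and of the nuclear-encoded respiratory chain were called lower with hairpin 2. Proteasome genes were called lower in 26 of 31 cases (median difference -0.60), with own medians of -0.55 with hairpin 2 and 0.07 with hairpin 1 in the authors' deposited tables. PSMA4, a subunit of the core particle, had 3143 and 3270.2 normalised reads with hairpin 2, 6894 and 7522 with hairpin 1 and 5946 and 7143 with shNS (log2 difference -1.19 ± 0.14, Wald adjusted p = 7.3e-17). Nuclear genes of the respiratory chain were called lower in 23 of 38 cases (median -0.42), with own medians of -0.23 with hairpin 2 and 0.22 with hairpin 1 in the authors' deposited tables. Once centred on the median difference, 16 of the respiratory chain genes were called lower, no longer most of them, and 21 of the proteasome genes. The complex I subunit NDUFB10 had 763 and 698 normalised reads with hairpin 2, 1470.0 and 1331 with hairpin 1 and 1118 and 1033 with shNS (log2 difference -0.96 ± 0.17, Wald adjusted p = 1.0e-07), above shNS with hairpin 1 and below it with hairpin 2.

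Genes of the mitochondrial genome, which encode subunits of the same chain, had a median difference of 0.36, opposite in sign to the nuclear ones. Of these 13 genes 2 were called higher by the Wald test and 8 of 12 by limma, and none lower by either. The Wald test left 11 of the 13 uncalled, and its share of higher calls is near that of all genes compared. Over all genes compared, 11.7% were called higher by the Wald test and 23.8% by limma. MT-ND3 had 3615 and 3786 normalised reads with hairpin 2, 1487 and 2059.5 with hairpin 1 and 3582 and 2715 with shNS (log2 difference 1.04 ± 0.37, Wald adjusted p = 0.019). MT-CYB had 36093 and 38308 normalised reads with hairpin 2, 18740.3 and 20704 with hairpin 1 and 33857 and 23684 with shNS (Wald adjusted p = 0.059, limma adjusted p = 3.0e-06). The shNS libraries differ from each other in both genes.

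Splicing factors were called lower in 18 of 23 cases (median -0.49). HNRNPA1 had 12538 and 12626 normalised reads with hairpin 2, 21318 and 21597 with hairpin 1 and 45543 and 43393 with shNS (log2 difference -0.79 ± 0.10, Wald adjusted p = 2.3e-14), again in 3 steps, and SRSF3 differed by -0.75. Of 22 genes of the IGF2BP family and the m6A machinery 6 were called lower and none higher, a share near the 24.1% of all genes compared, against 11 lower and 3 higher by limma. The 3 higher ones by limma were the IGF2BP genes. YTHDF1, a cytoplasmic m6A reader, had 958 and 975 normalised reads with hairpin 2, 1547 and 1499 with hairpin 1 and 1425 and 1463 with shNS (log2 difference -0.68 ± 0.15, Wald adjusted p = 3.4e-05). METTL16, a methyltransferase, differed by -0.54 and YTHDF2, a reader that promotes decay, by -0.48, both called lower.

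Because both perturbations act through small RNAs, the genes of that machinery were listed as well. Of 13 genes 4 were called higher and 4 lower, beside 11.7% higher and 24.1% lower of all genes compared. AGO2, the argonaute protein that cleaves targets of small RNAs, had 3918 and 3879 normalised reads with hairpin 2, 8195 and 8409 with hairpin 1 and 8859 and 9114 with shNS (log2 difference -1.11 ± 0.10, Wald adjusted p = 2.1e-24). XPO5, which exports precursor hairpins from the nucleus, had 2994 and 3075 normalised reads with hairpin 2, 4732 and 4499 with hairpin 1 and 6038 and 6499.7 with shNS (log2 difference -0.63 ± 0.11, Wald adjusted p = 6.7e-07). The silencing scaffold TNRC6B went the other way, with 8527 and 8614 normalised reads with hairpin 2, 4203 and 4377 with hairpin 1 and 3721 and 3672 with shNS (log2 difference 0.98 ± 0.11, Wald adjusted p = 4.8e-17). In the authors' deposited table for hairpin 1, TNRC6B rose by 0.23 on the log2 scale, which was called (DESeq2 adjusted p = 0.030). AGO2 changed there by -0.10, which was not called (DESeq2 adjusted p = 0.39).

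Most lipid synthesis genes were called lower with hairpin 2. Fatty acid synthesis genes were called lower in 11 of 14 cases and higher in none (median -0.86 over all 15 compared). FADS2, the delta-6 desaturase of polyunsaturated fatty acids, had 42.7 and 35.6 normalised reads with hairpin 2, 442 and 339 with hairpin 1 and 1828 and 1769 with shNS (log2 difference -3.34 ± 0.24, Wald adjusted p = 4.3e-41). Its groups form 3 steps far apart. FASN, fatty acid synthase, had 4229.6 and 4161 normalised reads with hairpin 2, 13013 and 9935 with hairpin 1 and 14991 and 15227 with shNS (log2 difference -1.47 ± 0.13, Wald adjusted p = 5.1e-28). SCD, the stearoyl-CoA desaturase, had no Wald test and stood at 4921 and 4724 normalised reads with hairpin 2, 15901 and 15745 with hairpin 1 and 36549.5 and 37139 with shNS (limma difference -1.71, adjusted p = 4.6e-12). Cholesterol synthesis genes were called lower in 17 of 23 cases and higher in 1, STARD4 (median -0.81). SQLE, squalene epoxidase, had 505 and 479 normalised reads with hairpin 2, 1267 and 1259 with hairpin 1 and 996 and 1004 with shNS (log2 difference -1.38 ± 0.17, Wald adjusted p = 4.3e-15), above the control with hairpin 1 and below it with hairpin 2.

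**Figure D4:**
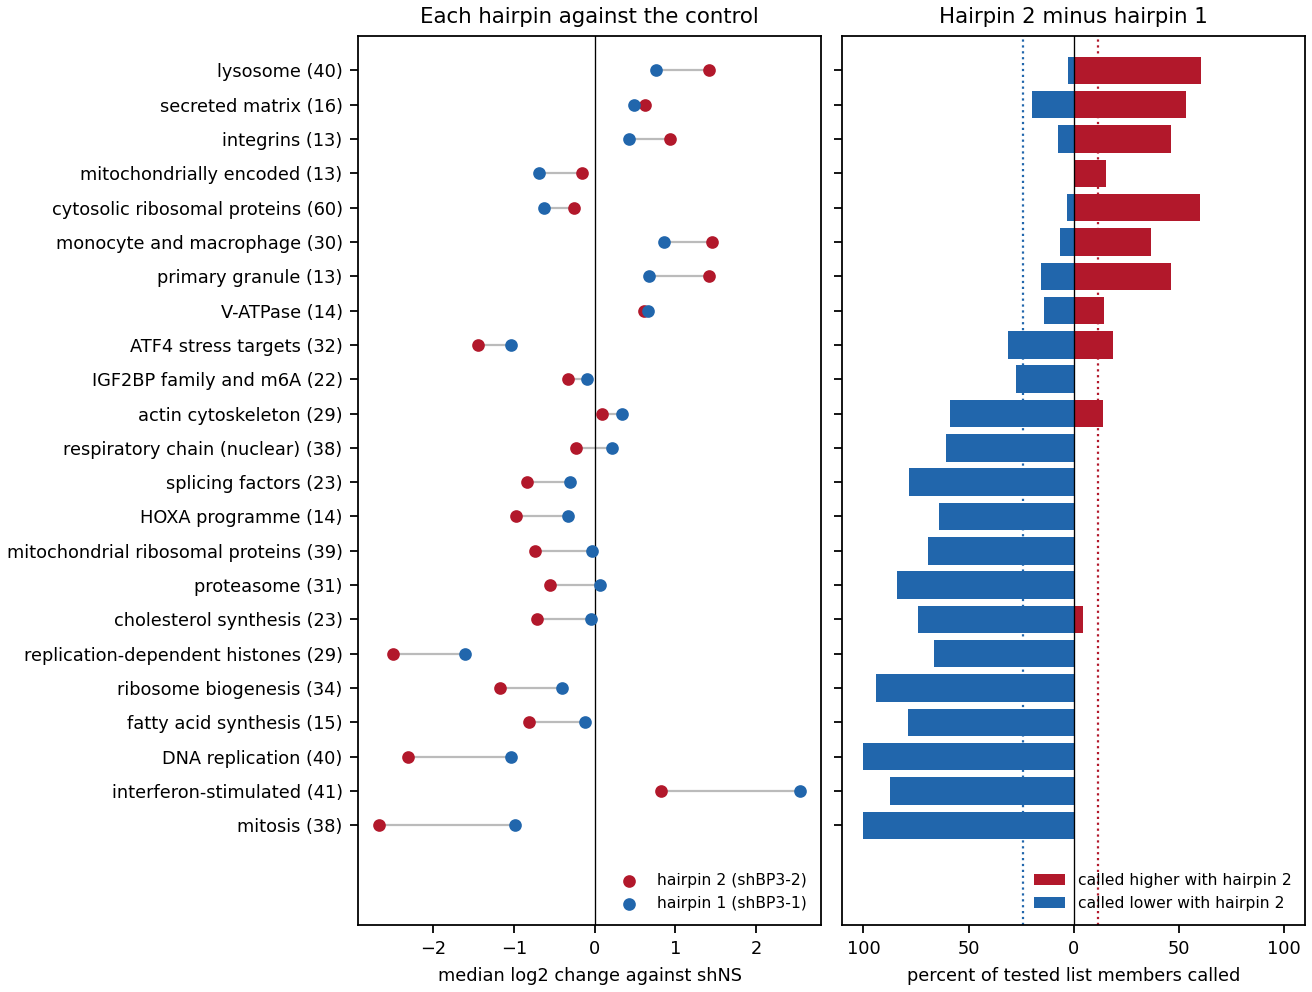
Left, the median log2 change against shNS of each gene list with hairpin 2 (red) and hairpin 1 (blue), with the number of genes in brackets; both comparisons share the shNS libraries. Right, the percent of tested list members called higher (red, to the right) or lower (blue, to the left) with hairpin 2 than with hairpin 1, with dotted lines at the 11.7% and 24.1% of all genes compared.

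Many lysosomal genes were called higher with hairpin 2. Of 38 with a test, 23 were called higher and 1 lower, the protease gene CTSH (median 0.73 over all 40 compared). GPNMB, a membrane glycoprotein of lysosomes and melanosomes, had 956 and 1011 normalised reads with hairpin 2, 207 and 181 with hairpin 1 and 71.3 and 71.2 with shNS (log2 difference 2.32 ± 0.33, Wald adjusted p = 4.0e-11). DNASE2, which degrades DNA in lysosomes, had 5886 and 5599.6 normalised reads with hairpin 2, 1912 and 1683 with hairpin 1 and 1318 and 1486 with shNS (log2 difference 1.65 ± 0.14, Wald adjusted p = 1.8e-28). NPC2, which moves cholesterol out of lysosomes, had 593 and 637 normalised reads with hairpin 2, 244 and 185 with hairpin 1 and 138 and 141 with shNS (log2 difference 1.50 ± 0.30, Wald adjusted p = 6.9e-06). The aspartic protease CTSD had no Wald test and stood at 5369.8 and 5071 normalised reads with hairpin 2, 1373 and 1156 with hairpin 1 and 449 and 424 with shNS (limma difference 2.05, adjusted p = 1.7e-11). In these 4 genes both hairpins lay above the control, hairpin 2 further.

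The V-ATPase, the proton pump that acidifies lysosomes, had a median difference of 0.02, and of its 14 genes 2 were called higher and 2 lower. Of all genes compared, 11.7% were called higher and 24.1% lower. ATP6V1F (0.99) and ATP6AP2 (0.35) were the higher ones. ATP6V1A (-0.61) and ATP6V0E1 (-0.46) were the lower ones, the last of which was not called once differences were centred. Their own medians were 0.61 with hairpin 2 and 0.66 with hairpin 1 in the authors' deposited tables.

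Monocyte and macrophage genes were called higher in 11 of 30 cases and lower in 2 (median 0.32). Higher were VCAN, ANPEP, TREM1 (1.76), TLR2, TLR4, CYBB, ITGAX, CCR2, CLEC7A, ITGB2 and TYROBP. Lower were the complement receptor C3AR1 and the chemokine receptor CCR1. C3AR1 had 61 and 56 normalised reads with hairpin 2, 247 and 251 with hairpin 1 and 73.3 and 77.2 with shNS (log2 difference -2.11 ± 0.44, Wald adjusted p = 1.5e-05), below the control with hairpin 2 and above it with hairpin 1. In the authors' deposited tables the change of C3AR1 with hairpin 2 was not called (DESeq2 adjusted p = 0.46). Primary granule genes, made at the promyelocyte stage, were called higher in 6 of 13 cases and lower in 2 (median 0.31).

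Within the granule list the genes parted ways. BPI, which kills Gram-negative bacteria, had 999 and 1019 normalised reads with hairpin 2, 184 and 192 with hairpin 1 and 190.1 and 189 with shNS (log2 difference 2.40 ± 0.27, Wald adjusted p = 2.2e-17), and its hairpin 1 libraries lay at the control level. ELANE, neutrophil elastase, had 21404 and 18871 normalised reads with hairpin 2, 7416 and 5319 with hairpin 1 and 3835 and 4209 with shNS (log2 difference 1.64 ± 0.26, Wald adjusted p = 5.7e-09). CTSG, cathepsin G, had 2113 and 2011 normalised reads with hairpin 2, 6463 and 5941 with hairpin 1 and 3140.0 and 3249 with shNS (log2 difference -1.61 ± 0.12, Wald adjusted p = 1.8e-37), with hairpin 1 above and hairpin 2 below the control.

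Integrins and matrix genes were mixed. Of 13 integrin genes 6 were called higher, among them ITGAX (CD11c), with 3840.4 and 3882 normalised reads with hairpin 2, 1559 and 1399 with hairpin 1 and 619 and 558 with shNS (log2 difference 1.36 ± 0.16, Wald adjusted p = 2.5e-16). Also higher were ITGA6 (1.24) and ITGA7 (1.10), whereas ITGA4 was the 1 called lower. Of 15 secreted and matrix genes with a test 8 were called higher and 3 lower (median 0.60 over all 16 compared). HSPG2, the basement membrane proteoglycan perlecan, had 1224 and 1182 normalised reads with hairpin 2, 355 and 287 with hairpin 1 and 252 and 213 with shNS (log2 difference 1.88 ± 0.25, Wald adjusted p = 9.1e-13). MMP2, a gelatinase, had no Wald test and stood at 6799.7 and 6573 normalised reads with hairpin 2, 1023 and 1009.7 with hairpin 1 and 368 and 336 with shNS (limma difference 2.72, adjusted p = 2.0e-13). COL4A2, ADAMTS1 and TIMP2 were the lower ones.

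Actin cytoskeleton genes were called lower in 17 of 29 cases and higher in 4 (median -0.34), or 11 lower and 5 higher once centred on the median difference. VASP, which promotes actin filament growth, had 1178 and 1158 normalised reads with hairpin 2, 3739 and 3442 with hairpin 1 and 2779.7 and 2762 with shNS (log2 difference -1.64 ± 0.13, Wald adjusted p = 3.5e-35). LIMA1, an actin-bundling protein, had 185 and 224 normalised reads with hairpin 2, 745 and 762 with hairpin 1 and 202 and 179.5 with shNS (log2 difference -1.90 ± 0.28, Wald adjusted p = 1.3e-10), with hairpin 2 at the level of the control.

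In the BCL2 family, which sets the threshold for apoptosis, 5 of 19 genes were called higher and 6 lower, against 8 and 9 by limma. Of all genes compared, the Wald test called 11.7% higher and 24.1% lower. BNIP3L, a receptor for mitophagy, had 1706 and 1845 normalised reads with hairpin 2, 619 and 617 with hairpin 1 and 738 and 891 with shNS (log2 difference 1.50 ± 0.18, Wald adjusted p = 6.5e-15). The pro-death genes BBC3 (1.19), HRK (1.06), BMF and BAX were also higher with hairpin 2 than with hairpin 1. In the authors' deposited tables HRK was below shNS with both hairpins, by -0.89 with hairpin 2 and -1.94 with hairpin 1. BBC3 changed there by 0.13 with hairpin 2, which was not called (DESeq2 adjusted p = 0.77), and by -1.06 with hairpin 1. PMAIP1, the pro-death gene NOXA, was 1 of the 6 called lower, with 229.7 and 185 normalised reads with hairpin 2, 439 and 438 with hairpin 1 and 387 and 452 with shNS (log2 difference -1.10 ± 0.25, Wald adjusted p = 8.8e-05). The other genes called lower are not named here. The median difference of the list was -0.11, against -0.10 over all genes compared.

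Homeobox genes of the HOXA programme and its partners, which KMT2A fusions keep active, were called lower in 9 of 14 cases and higher in none (median -0.53). HOXA10 had 287 and 272 normalised reads with hairpin 2, 1153 and 1223 with hairpin 1 and 1345 and 1391 with shNS (log2 difference -2.11 ± 0.17, Wald adjusted p = 5.2e-34). FLT3, the receptor kinase of blasts, had 4307 and 4261 normalised reads with hairpin 2, 10635 and 11284 with hairpin 1 and 13507 and 13945 with shNS (log2 difference -1.38 ± 0.10, Wald adjusted p = 8.6e-38). HOXB9, the only gene of the HOXB cluster compared, had 3.05 and 3.05 normalised reads with hairpin 2, 21.5 and 14.7 with hairpin 1 and 201 and 157 with shNS, and a log2 difference of -2.59 ± 0.76 (Wald adjusted p = 0.0036) that rests on few reads with hairpin 2. Stem and progenitor genes were called lower in 5 of 10 cases and higher in 1. SOX4 had 409 and 442 normalised reads with hairpin 2, 1061 and 1049 with hairpin 1 and 926 and 939 with shNS (log2 difference -1.33 ± 0.17, Wald adjusted p = 5.9e-13) and the telomerase gene TERT had 13.2 and 13.2 normalised reads with hairpin 2, 41.1 and 38.2 with hairpin 1 and 236 and 207 with shNS (log2 difference -1.61 ± 0.48, Wald adjusted p = 0.0047).

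Targets of the stress factor ATF4 had a median difference of 0.01, with 6 of 32 called higher and 10 lower. Of all genes compared, 11.7% were called higher and 24.1% lower. SLC7A11, the cystine transporter, had 8414 and 9229 normalised reads with hairpin 2, 3541 and 3953 with hairpin 1 and 2938 and 3221 with shNS (log2 difference 1.21 ± 0.13, Wald adjusted p = 5.0e-20). SLC1A5, the glutamine transporter, had 1320.1 and 1195 normalised reads with hairpin 2, 3221 and 2650.1 with hairpin 1 and 6139 and 6280.0 with shNS (log2 difference -1.25 ± 0.13, Wald adjusted p = 2.7e-19). In the serine and one-carbon list 8 of 13 genes were called lower and 1 higher. PHGDH, the first enzyme of serine synthesis, had 718 and 693 normalised reads with hairpin 2, 1529 and 1223 with hairpin 1 and 5803 and 5745 with shNS (log2 difference -0.99 ± 0.14, Wald adjusted p = 2.8e-11), far below shNS with both hairpins.

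Signalling lists held calls in both directions. Immediate early genes were called higher in 4 of 29 cases and lower in 7, against 7 and 12 by limma. The Wald shares are near the 11.7% higher and 24.1% lower of all genes compared. EGR1 had 243 and 262 normalised reads with hairpin 2, 589 and 574 with hairpin 1 and 524 and 428 with shNS (log2 difference -1.23 ± 0.23, Wald adjusted p = 2.1e-06). NF-kB genes were called higher in 2 of 17 cases and lower in 6, against 6 and 7 by limma. Their share of higher Wald calls is also near 11.7%. By limma, 23.8% of all genes compared were called higher and 35.6% lower. The inhibitor NFKBIA differed by 0.70 and the dendritic cell marker CD83 by -1.13. Of 11 chemokine and cytokine genes 3 were called higher and 3 lower. IL1B had 889 and 929 normalised reads with hairpin 2, 398 and 377 with hairpin 1 and 376 and 329 with shNS (log2 difference 1.21 ± 0.22, Wald adjusted p = 6.1e-07), and TNF had 241 and 258 normalised reads with hairpin 2, 482 and 443 with hairpin 1 and 324 and 377 with shNS (log2 difference -0.91 ± 0.25, Wald adjusted p = 0.0015).

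**Figure D5:**
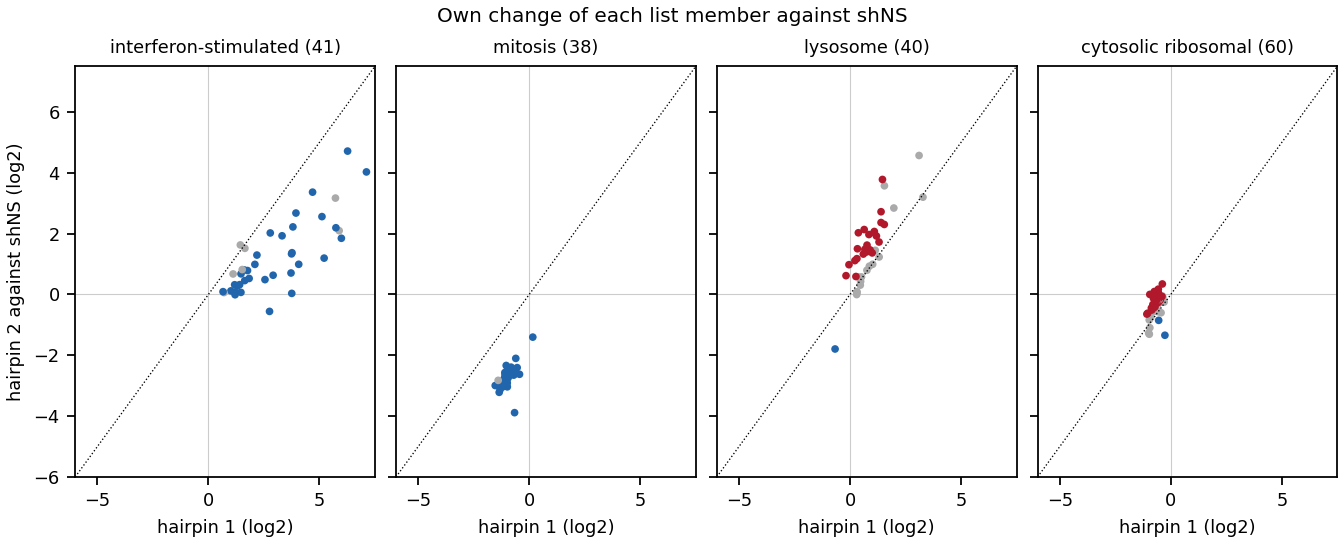
Each point is a list member, with the log2 change against shNS with hairpin 2 upwards and with hairpin 1 across, red where called higher and blue where called lower with hairpin 2, grey where not called or without a test. The dotted line marks equal changes, and both axes share the shNS libraries. The 38 mitosis genes lie under the line, most interferon-stimulated genes under it at positive changes, and most lysosomal genes above it.

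The share of calls grew with level. Genes whose lower base mean was 50 to 100 were called higher in 7.51% and lower in 5.24% of 1279 cases, with a median SE of 0.50. Genes at 3000 or more were called higher in 15.9% and lower in 36.9% of 1495 cases, with a median SE of 0.12. The median difference also moved with level, from 0.13 at 50 to 100 to -0.17 at 3000 or more. Protein-coding genes (10471) had a median difference of -0.14 and long noncoding RNAs (979) one of 0.23. Their median base means in the hairpin 2 comparison were 856 and 133, and the part of level in this contrast was not tested. The coding genes were called higher in 11.6% and lower in 27.0%, and the noncoding ones in 14.3% and 4.90%. The 26 small nucleolar RNA genes had a median of 0.39, with 1 called higher and none lower, and the sums of small RNA genes also differed between the shNS libraries.

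A few genes stood at the ends of the scale. The highest base means belonged to the elongation factor EEF1A1, which was called higher (log2 difference 0.70 ± 0.11, Wald adjusted p = 4.7e-09), the nuclear RNA MALAT1 (log2 difference 0.32 ± 0.10, Wald adjusted p = 0.0063) and RN7SL1, the RNA of the signal recognition particle (log2 difference 0.76 ± 0.36, Wald adjusted p = 0.11). Reads were not sought for these, since their base means exceed 100000. Just inside the minimum of 50 were ENSG00000258728 and ENSG00000285589, with smaller base means of 50.06 and 50.07 in the authors' deposited tables and differences of 1.03 and -0.41. Just outside were ENSG00000276136 and ENSG00000258539, with 49.95 and 49.90 and differences of 0.60 and -0.10.

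In all, 12 genes had no Wald test because the authors' deposited tables list an adjusted p of 0. Besides OAS2, OAS3, MKI67, SCD, CTSD and MMP2 these were PLXDC2, LGALS3, RALGAPA2, PSAP, H1-5 and H3C2. PLXDC2, a plexin domain receptor, had 8973 and 9168 normalised reads with hairpin 2, 2186 and 2272 with hairpin 1 and 1160.2 and 1239 with shNS (limma difference 2.02, adjusted p = 2.5e-12). LGALS3, galectin-3, had 5489.8 and 5316 normalised reads with hairpin 2, 1806 and 1625 with hairpin 1 and 514 and 467 with shNS (limma difference 1.66, adjusted p = 6.6e-11). PSAP, the precursor of the saposins of lysosomes, had 83106 and 77498 normalised reads with hairpin 2, 47015 and 39581 with hairpin 1 and 10928 and 11371 with shNS (limma difference 0.90, adjusted p = 7.3e-08). RALGAPA2 differed by 1.75, and the histone genes H1-5 and H3C2 by -1.49 and -1.18 in the limma fit.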

How the data were processed

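The authors deposited, per hairpin, a table of DESeq2 results with a base mean (normalised signal averaged over 4 libraries), a log2 fold change against shNS and an adjusted p-value, per the file headers. The submitters' processing notes name cutadapt 4.1, HISAT2 2.1.1, HTSeq 2.0.2 and DESeq2 (version not given in the sources used here), with build hg38. Genes with a base mean of at least 50 in both tables were joined by gene ID. The members and gene lists were chosen with earlier results of these data known.

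From each deposited p-value, with the Benjamini-Hochberg adjustment undone, a standard error was computed. The difference of the log2 fold changes was tested by a two-sided Wald test over the root of the summed squared errors, adjusted by Benjamini-Hochberg, with a threshold of 0.05. Both errors hold the shared control, which makes them too large. 12 genes with a deposited adjusted p of 0 had no test. The count model planned for values per library was not used, since the tables hold none as counts.

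Base means carry 15 significant digits and were searched, up to 100000, for the single set of whole reads in 6 libraries that gives both tables' base means and fold changes. Size factors recomputed from these reads differed from those read from the lowest base means by at most 0.0375%. Which pair of size factors belongs to shNS was taken from the sign of the deposited fold changes. The libraries' recovered reads lie between 19083984 and 21636040, and counting error enters the spread between libraries, most at low base means. limma 3.58.1 (R 4.3.3, trend) was fitted to log2 of reads plus 0.5 over size factors, with a mean of at least 10. Other steps used Python 3.11.15, numpy 2.4.6, scipy 1.17.1, pandas 2.3.3, numba 0.67.0 and matplotlib 3.10.9. Coordinates are from GENCODE release 29 and promoters from RefSeq GRCh38.p14.

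Named genes are the IGF2BP genes, the 12 highest and 12 lowest differences, up to 4 members of each list with the largest differences, the 6 largest differences in each opposite arrangement, the neighbours of the minimum and the 3 highest base means. Other genes named with values, in the closing observations, and called list members named without values were chosen after their values were seen. Some genes and lists are not reported here.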

Additional observations from a re-analysis of the deposited data

How the results depend on the processing

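Against 1406 higher and 2882 lower calls, leaving the control's share out of the standard error gave 2189 higher and 3935 lower, requiring at least a 2-fold difference 401 and 687, and limma on the recovered reads 2856 and 4271. limma without each library in turn gave 2194 to 2923 higher and 3564 to 4226 lower calls, where a lone library is assumed to vary like the other groups. A minimum base mean of 100 (1310 and 2815), none (1479 and 2967), an adjusted p under 0.01 (999 and 2260), adjustment over the compared genes alone (1488 and 3007) and centring (1791 and 2281) stayed within 1.5 times. List counts were compared in the direction with more calls, where it held at least 5. Of these, 3 lists moved further: immediate early genes called lower by limma (12), IGF2BP and m6A genes called lower without the control's share and by limma (11 each) and actin genes called lower when centred (11). In the other direction, or below 5 calls, higher calls of mitochondrially encoded genes (2) came to 8 by limma and 4 without the control's share, of NF-kB genes (2) to 6 and 5, of immediate early genes (4) to 7 by limma, of BCL2 genes (5) to 8 by limma and of IGF2BP and m6A genes (0) to 3 under each of limma, centring and no control share. The remaining such counts stayed within 1.5 times or moved by 1 or 2 genes. None of the 209 named genes with a test changed direction, and 2, PSMB9 and ATP6V0E1, lost their call when centred. The causes were not tested. No paired analysis was possible because the recovered libraries carry no replicate number, so the replicate block was not run. Genes under a base mean of 100 have a median SE of 0.50, which limits what could be called there.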

Other observations

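Some chaperone genes were chosen here after their values were seen. The 8 genes of the CCT chaperonin, which folds actin and tubulin, were called lower in 8 of 8 cases, with differences of -1.23 to -0.80 and a median of -1.03, and a set chosen this way supports no general statement. TCP1, its first subunit, had 4325 and 4278 normalised reads with hairpin 2, 9961 and 9948 with hairpin 1 and 9203 and 9631 with shNS (log2 difference -1.23 ± 0.10 SE, Wald adjusted p = 9.7e-30). HSP90AA1, the inducible cytosolic Hsp90, had 7797 and 7823 normalised reads with hairpin 2, 26403 and 28184 with hairpin 1 and 24186 and 24909 with shNS (log2 difference -1.83 ± 0.10, Wald adjusted p = 8.7e-72). For both genes hairpin 1 lay slightly above shNS and hairpin 2 far below it. The changes with hairpin 1 were not called in the authors' deposited tables (DESeq2 adjusted p = 0.41 for TCP1 and 0.091 for HSP90AA1).

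A few further genes were also chosen after their values were seen and stand for no group. ULK1, the kinase that starts autophagy, had 4191 and 3909.5 normalised reads with hairpin 2, 1102 and 961 with hairpin 1 and 1234 and 1207 with shNS (log2 difference 1.95 ± 0.15, Wald adjusted p = 5.1e-37). GABARAPL1, which decorates autophagosomes, had 1473 and 1401 normalised reads with hairpin 2, 339 and 284 with hairpin 1 and 229.7 and 195 with shNS (log2 difference 2.18 ± 0.25, Wald adjusted p = 4.8e-17). IRS2, an adaptor of the insulin receptor, had 4206 and 3880.0 normalised reads with hairpin 2, 1114 and 1066 with hairpin 1 and 1316 and 1216 with shNS (log2 difference 1.87 ± 0.14, Wald adjusted p = 2.7e-35). FTH1, the heavy chain of ferritin, had 44449.5 and 37466 normalised reads with hairpin 2, 14385 and 12675 with hairpin 1 and 6005 and 5360.2 with shNS (log2 difference 1.58 ± 0.13, Wald adjusted p = 4.8e-32). CCND1, cyclin D1, had 384 and 377 normalised reads with hairpin 2, 1559 and 1525 with hairpin 1 and 428 and 385 with shNS (log2 difference -2.04 ± 0.20, Wald adjusted p = 9.5e-22), with hairpin 2 just under the control and hairpin 1 far above it. In the authors' deposited tables the change of CCND1 with hairpin 2 was not called (DESeq2 adjusted p = 0.67). WEE1, the kinase that holds back CDK1, had 144 and 118 normalised reads with hairpin 2, 607 and 609 with hairpin 1 and 1187 and 1152 with shNS (log2 difference -2.23 ± 0.20, Wald adjusted p = 6.6e-28).

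Below the minimum base mean, 4274 genes had a test, of which 73 were called higher and 85 lower with hairpin 2. Calls were thus rarer there than among all genes with a test, where 9.1% were called higher and 18.3% lower. Some miss the minimum in the hairpin 2 comparison alone and are abundant with hairpin 1. IFI44L, an interferon-stimulated gene, had 26.4 and 37.7 normalised reads with hairpin 2, 4038 and 4770.3 with hairpin 1 and 19.8 and 15 with shNS (log2 difference -7.12 ± 0.66, Wald adjusted p = 3.2e-25). THBS1, the matrix protein thrombospondin-1, had 9.15 and 10.2 normalised reads with hairpin 2, 863 and 724 with hairpin 1 and 40.6 and 44.1 with shNS (log2 difference -6.38 ± 0.65, Wald adjusted p = 1.8e-20), and shNS lay between the hairpins. CXCL8, the neutrophil chemokine interleukin-8, had 728 and 804 normalised reads with hairpin 2, 60.8 and 57.8 with hairpin 1 and 14.8 and 28.1 with shNS (log2 difference 3.67 ± 0.57, Wald adjusted p = 2.5e-09). CR1, a complement receptor, had 85.4 and 91.6 normalised reads with hairpin 2, 4.68 and 6.86 with hairpin 1 and 13.9 and 20.1 with shNS (log2 difference 3.92 ± 1.01, Wald adjusted p = 7.5e-04). APOE, apolipoprotein E, had 231 and 224 normalised reads with hairpin 2, 29.9 and 19.6 with hairpin 1 and 9.9 and 10 with shNS (log2 difference 3.17 ± 0.84, Wald adjusted p = 0.001). CXCL8 and APOE stood above shNS with both hairpins and highest with hairpin 2. For APOE the change with hairpin 1 was not called in the authors' deposited tables (DESeq2 adjusted p = 0.16).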
